A study of Mus musculus with 12 samples.

Results

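The comparison of pregnant with virgin mouse lung rests on 6 of the 12 arrays of the study, 3 from lungs of pregnant mice and 3 from lungs of virgin mice. Members were all probe sets with a single gene symbol in the platform annotation, which were 34945 of the 45037 probe sets other than controls. Where a gene had several, the probe set with the highest mean over the 6 lung arrays stood for it, which gave 18193 genes. The animals were female NOD/SCID mice, 8 to 10 weeks old when experiments began, either virgin or at day 16 of gestation, and both groups carried the immunodeficient background that lacks mature T and B cells. Whole lung was ground, so every cell type of the organ contributed, and RNA from 2 mice was combined for each array. The p-values therefore measure the spread between pools of 2 animals, and 3 arrays per group limit the precision. The study set pregnant against virgin organs to ask what gestation changes in tissues where tumour cells can settle.

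Late mouse gestation raises circulating placental hormones, progesterone and glucocorticoids and expands blood volume, and the lung receives the whole cardiac output. The adult lung holds alveolar and airway epithelium, a dense capillary endothelium, fibroblasts that lay down collagen and elastic fibres, resident macrophages and a pool of blood leukocytes and platelets. Few cells of the resting adult lung divide.

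Values are log2 expression levels as the authors deposited them, so a difference of 1 is a 2-fold change. The median level over all probe sets was 4.53, and signal above background is not shown for levels under it. Medians of single arrays ran from 4.52 to 4.545. Arrays of a group correlated at 0.9951 to 0.9961, and arrays of opposite groups at 0.9939 to 0.9951. Lung identity was clear on every array. The surfactant gene Sftpc lay between 14.22 and 14.36, the club cell gene Scgb1a1 between 14.23 and 14.37, and the alveolar type 1 gene Ager between 14.2 and 14.31. The lists of alveolar type 1, alveolar type 2, club and goblet and ciliated cells had median changes of -0.03, 0.02, -0.02 and 0.04, with 0 called members each, against a median of -0.01 over all genes. Of 18 T and B lymphocyte genes 9 had a mean level above 4.53. The T cell receptor complex gene Cd3g lay between 3.4 and 3.85, while the highest members, Cd22, Zap70 and Ighm, lay between 6.7 and 7.93.

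At a Benjamini-Hochberg adjusted p under 0.05 in limma, 79 genes were called, or 0.434% of those tested. Of these 23 rose (0.126%) and 56 fell (0.308%), and 14 changed at least 2-fold. The pregnant and virgin pools of all 79 lay apart, as did those of 1483 genes that were higher (8.15%) and 1899 genes that were lower (10.4%) among all tested. Fits to 5 arrays, which have fewer samples, gave other counts. Dropping virgin pool 1, 2 or 3 gave 60, 13 or 6 calls, of which 38, 13 and 6 were among the 79. Dropping pregnant pool 1, 2 or 3 gave 22, 31 or 102 calls, of which 15, 25 and 50 were among the 79. Prl8a2, Fst, Slfn4, Lrat, Cxcl14 and Cpxm1 passed whichever single array was left out, and 20 of the 79 passed in 0 of the 6 such fits.

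**Figure D1:**
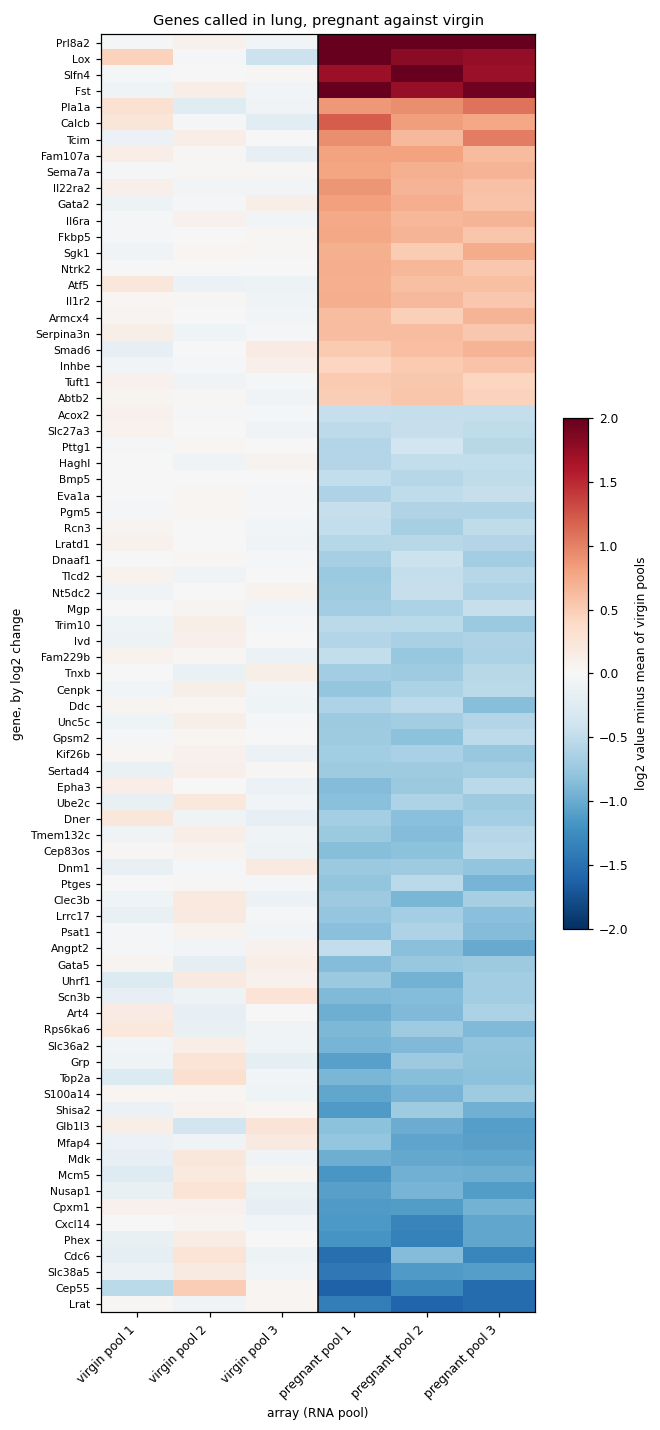
Each line is one of the 79 called genes, ordered by log2 change, and each column is 1 lung array. Colour gives the log2 value minus the mean of the virgin pools and saturates at 2 either way. The 23 genes that rose are red and the 56 that fell are blue in all 3 pregnant pools.

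Genes of DNA replication and of mitosis were the lists furthest below the rest. Replication starts when licensing factors load the MCM helicase on origins, and mitosis then needs condensed chromosomes, a spindle and timed protein destruction. Of 44 replication and licensing genes 3 fell, 0 rose and 41 did not pass. Their median change was -0.31, and in 28 of them (63.6%) every pregnant pool lay below every virgin pool, while 0 lay above. Of 63 mitosis and spindle genes 5 fell, 0 rose and 58 did not pass. Their median change was -0.29, with 31 (49.2%) lower without overlap and 0 higher. Of all genes 0.308% fell and 0.126% rose, and without overlap 10.4% were lower and 8.15% higher. The list medians were below 0 under every alternative tried and in each fit without 1 array; the mitosis median came nearest to 0, at -0.14, under one choice of probe sets.

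Mcm5, a subunit of the replicative helicase, was at 7.83, 8.28 and 8.14 in virgin pools 1 to 3 and at 6.92, 7.12 and 7.11 in the pregnant pools. The groups were apart by more than their own spread, with a change of -1.03 ± 0.12 (log2 with SE, 3 pools in each group, adjusted p = 0.0162 in limma), and of the further Mcm5 probe sets one changed by -1.16 and one had a value of -0.24 that did not pass. Cdc6, which loads the helicase, fell by 1.23 ± 0.17 to a pregnant mean of 3.97, under the median level of all probe sets. Uhrf1, which links DNA methylation to replication, fell by 0.79 from a virgin mean of 4.5, already under that level, and its further probe set was at -0.16. Nusap1, which bundles spindle microtubules, fell from 6.42 ± 0.24 to 5.37 ± 0.11 (SD, n = 3), but its other probe set changed by -0.14 without passing.

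Further falls covered successive steps of division. Ube2c, the ubiquitin-conjugating enzyme of the anaphase-promoting complex, was at 6.67, 7.03 and 6.77 in virgin and 5.99, 6.21 and 6.11 in pregnant lung. Top2a, which untangles sister chromatids, was at 5.73, 6.33 and 5.95 against 5.09, 5.15 and 5.18. Pregnant pools sat below all virgin pools for both genes, with changes of -0.72 ± 0.11 and -0.87 ± 0.14 (limma adjusted p = 0.0327 and 0.0406). Further Top2a probe sets were at -0.10 and -0.076 and did not pass. Top2a passed in 1 of the 6 fits without 1 array, and its call was lost under 3 other settings. Cenpk, a kinetochore component, fell by 0.65, with further probe sets at 0.011 and 0.019. Cep55, which acts in the final cut between daughter cells, fell by 1.48, but its other probe set was at -0.084, and it passed in 1 of the 6 fits without 1 array. Gpsm2, which orients the spindle, fell by 0.69; Cep55 and Gpsm2 stand outside the list. Pttg1, which encodes securin, fell by 0.51 on the probe set that stood for it, but another of its probe sets was 0.14 higher (adjusted p = 0.608 where suffixed probe sets, which can match several transcripts, were left out). Virgin pool 2 had the highest mean level of the mitosis list, 5.38 against 5.08 and 5.21 in the other virgin pools, and the pregnant pools were at 4.82, 4.94 and 4.81. Without virgin pool 2 the adjusted p of Ube2c was 0.118, and Nusap1 passed in 4 of the 6 fits without 1 array. In whole tissue, fewer cells of a type and less RNA per cell cannot be told apart.

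Promoters of these genes are shown because many mitotic genes share 2 short elements: the CCAAT box and the cell cycle homology region, CHR, with the letters TTTGAA. The 120 bases before the annotated start were taken from RefSeq on GRCm38.p6 and run 5′ to 3′ on the strand of the gene, with CCAAT and TTTGAA in either orientation in capitals. Ube2c lies on the plus strand at chr2:164769809-164769928, Top2a on the minus strand at chr11:99024190-99024309 and Mcm5 on the plus strand at chr8:75109389-75109508.
Ube2c: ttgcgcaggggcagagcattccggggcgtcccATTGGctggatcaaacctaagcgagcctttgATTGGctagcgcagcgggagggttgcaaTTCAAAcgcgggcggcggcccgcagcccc
Top2a: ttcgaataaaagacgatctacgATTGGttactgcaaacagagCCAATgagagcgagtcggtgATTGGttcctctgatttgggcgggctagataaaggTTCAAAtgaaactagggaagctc
Mcm5: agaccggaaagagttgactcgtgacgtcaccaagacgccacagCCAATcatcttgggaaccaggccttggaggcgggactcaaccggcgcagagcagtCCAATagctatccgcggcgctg

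Both mitotic promoters carried CCAAT and TTTGAA matches in this window, and that of Mcm5 carried CCAAT matches only. These promoters are shown for their matches and do not stand for all called members: those of Nusap1, Pttg1 and Cdc6 had no match to the motifs searched in 250 bases, and those of Cenpk had CCAAT only. In the 250 bases before the start, searched on both strands, CCAAT was found in 72.7% of 55 promoters of the mitosis list and 51.2% of 43 of the replication list, against 34.7% of 18109 promoters of the genes tested. TTTGAA was found in 40% and 14%, against 11.9%. An E2F site, searched as GGCGGGAA, was found in 0% and 9.3%, against 2.72%. A match is a description of the letters and not a bound site.

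**Figure D2:**
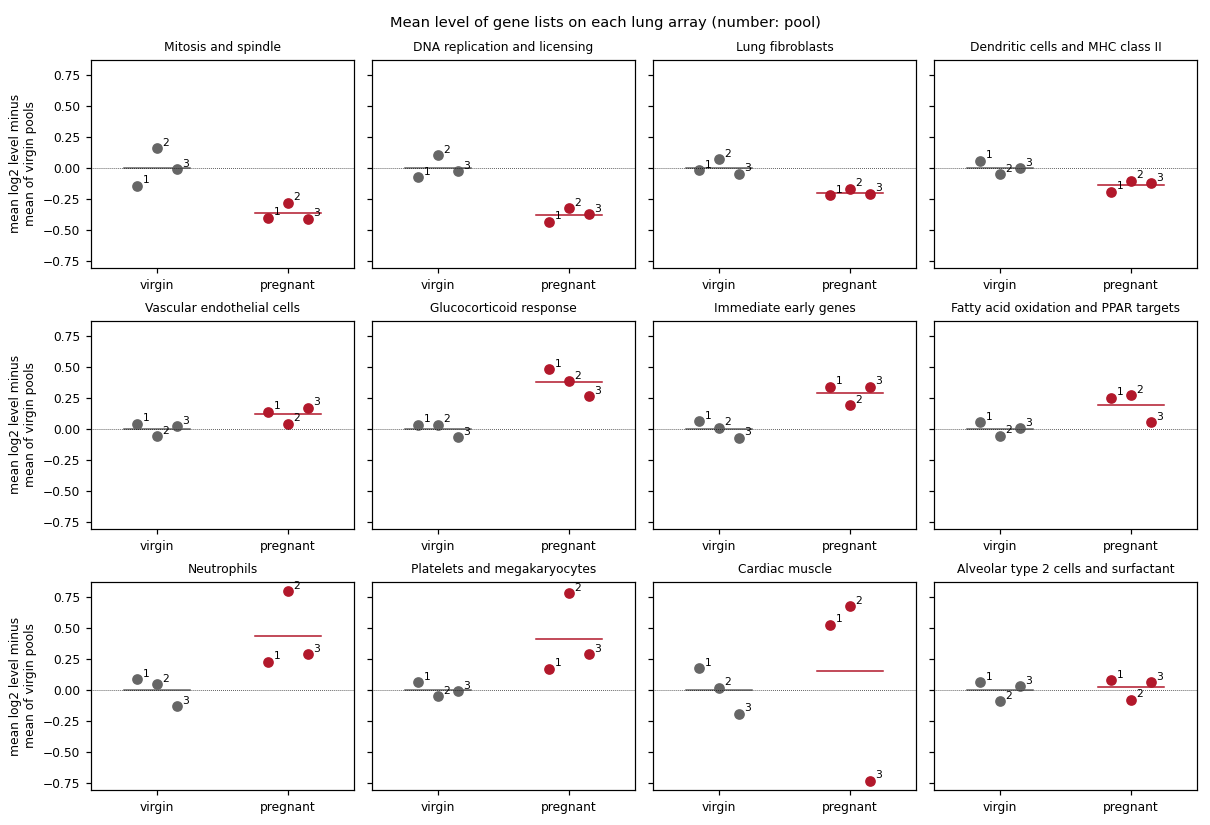
Points give the mean log2 level of 12 gene lists on each lung array minus the mean of the 3 virgin pools, with the pool number beside each point, and lines give group means. The replication, mitosis and fibroblast lists lie below 0 in all 3 pregnant pools, and the glucocorticoid and immediate early lists lie above. The neutrophil and platelet lists are highest in pregnant pool 2. The cardiac list is highest in pregnant pool 2 and lowest in pregnant pool 3, with mean levels of 7.99 and 6.58 before the subtraction.

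Elastic fibres and other matrix proteins give the lung its recoil. Of 53 elastic fibre and other matrix genes 1 rose, the cross-linking enzyme gene Lox, while 4 fell and 48 did not pass. The list median was -0.05, and without overlap 7.55% were higher and 20.8% lower, against 8.15% and 10.4% of all genes. Mfap4, which encodes a microfibril protein that binds elastic fibres, was at 12.26, 12.31 and 12.56 in virgin and 11.6, 11.32 and 11.29 in pregnant lung, a 1.97-fold fall (log2 SE 0.12, limma adjusted p = 0.0162). Mgp, an inhibitor of calcification and of BMP ligands, was at 13.79, 13.83 and 13.72 against 13.08, 13.15 and 13.32 and fell by 0.60. Neither gene's groups overlapped. Tnxb, a matrix glycoprotein that spaces collagen fibrils, fell by 0.65, and Cpxm1, a carboxypeptidase-like secreted protein, by 1.07. Mgp and Tnxb each passed in 1 of the 6 fits without 1 array, and their calls were lost with all 12 arrays in the fit. Lox, which cross-links collagen and elastin, went the other way, from 8.8, 8.32 and 7.92 to 10.58, 10.15 and 10.11, and of its further probe sets one rose by 2.12 and one was at 0.16 without passing. The virgin pools of Lox spread over 0.44 (SD), wider than the 0.26 of the pregnant pools, and its adjusted p was 0.0797 without virgin pool 2.

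None of the 23 fibroblast markers passed the test, with a median of -0.16. Without overlap 4.35% were higher and 39.1% lower, against 8.15% and 10.4% of all genes. Adh1, a retinol-oxidising dehydrogenase of lung fibroblasts, had a change of -0.65 ± 0.11 (limma adjusted p = 0.0535), Meox2 one of -0.71 and the fibril-associated collagen gene Col14a1 one of -0.40. None of 28 collagen genes passed either, with a median of -0.07, and 0% were higher and 25% lower without overlap. Col12a1 and Col6a2 had changes of -0.45 and -0.66. Outside the lists, Clec3b, which encodes the plasminogen-binding protein tetranectin, fell by 0.77, and Rcn3, a chaperone of the secretory pathway, by 0.56. Clec3b passed in 1 and Rcn3 in 0 of the 6 fits without 1 array. Among matrix proteases and inhibitors none of 34 passed; Mmp13, a collagenase, had a change of 1.01 (adjusted p = 0.0563) from a virgin level of 2.94, and the inhibitor gene Timp4 one of 0.66 (adjusted p = 0.0601).

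Activins and BMPs are ligands of the TGF-beta family, follistatin traps activins and some BMPs, and SMAD6 blocks BMP signalling inside the cell. Of 43 genes of this pathway 2 rose, 1 fell and 40 did not pass, while 0.126% of all genes rose and 0.308% fell. Members lay both ways, with a median of 0.04. Without overlap 25.6% were higher and 20.9% lower, against 8.15% and 10.4% of all genes. Fst, which encodes follistatin, was at 4.76, 4.99 and 4.8 in virgin and 6.84, 6.6 and 6.8 in pregnant lung, a 3.72-fold rise (limma adjusted p = 0.000147), and its further probe set was at 0.73 without passing. Smad6 was at 10.61, 10.77 and 10.94 against 11.3, 11.38 and 11.45 and rose by 0.60 ± 0.10 (adjusted p = 0.0473, 0.186 without virgin pool 2). Bmp5, a BMP ligand, was at 9.33, 9.33 and 9.34 against 8.84, 8.77 and 8.83, and fell by 0.52 ± 0.07, with further probe sets at -0.49 and -0.16 that did not pass. The groups of all these genes were apart, and the spread of Bmp5 was the smallest of the 3. Bmp5 and Smad6 nevertheless passed in 0 of the 6 fits without 1 array, and the call of Bmp5 was lost in the mean of all its probe sets. BMP-induced genes chosen after their values were seen had changes of 0.53 for Smad7, 0.56 for Id1 and 0.37 for Id3, and the BMP-binding protein gene Bmper one of -0.52. None of these passed (limma adjusted p = 0.0637, 0.105, 0.259 and 0.0906). Inhbe, an activin subunit gene, rose by 0.51 between levels of 2.85 and 3.36, where signal above background is not shown.

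Among 47 Wnt pathway genes 1 fell, with 4.26% higher and 19.1% lower without overlap. Among 31 genes of the insulin-like growth factor axis and imprinted growth genes 1 fell, with 22.6% higher and 25.8% lower. Among 28 hedgehog and FGF genes 0 fell, with 10.7% higher and 21.4% lower. In each list 0 rose, and the shares of all genes were 8.15% higher and 10.4% lower. The list medians were -0.04, -0.03 and -0.07. Mdk, the growth factor midkine of the second list, fell 2.02-fold. Shisa2, which holds Wnt and FGF receptors back in the endoplasmic reticulum, fell by 0.93, and Wnt5a, a Wnt ligand, had a change of -0.64 (adjusted p = 0.0848), while Apcdd1, a Wnt inhibitor, had one of 0.51 (adjusted p = 0.102). Outside these lists Kif26b, a kinesin family gene, fell by 0.70, and the transcription factor gene Gata5 by 0.79. The netrin receptor gene Unc5c fell by 0.67, and the ephrin receptor gene Epha3 by 0.72, with further Epha3 probe sets at -0.16, -0.38 and 0.034 that did not pass. Dner, a Notch ligand gene, fell by 0.73 but passed in 0 of the 6 fits without 1 array. Hedgehog effector Gli3, growth factor Igf1 and the imprinted gene Mest had changes of -0.47, -0.61 and 0.49 that did not pass (limma adjusted p = 0.0563, 0.128 and 0.117).

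Of 36 neurotrophin and guidance genes 1 rose, 0 fell and 35 did not pass, while 0.126% of all genes rose and 0.308% fell. The list median was 0.01. Without overlap 19.4% were higher and 2.78% lower, against 8.15% and 10.4% of all genes. Outside that list Sema7a, a membrane-anchored semaphorin, was at 8.02, 8.09 and 8.08 in virgin and 8.85, 8.78 and 8.74 in pregnant lung, a rise of 0.73 ± 0.08 (limma adjusted p = 0.0104), while its other probe set had a change of -0.19 (adjusted p = 0.492 among all single-symbol probe sets). Ntrk2, the receptor of brain-derived neurotrophic factor, rose by 0.65 on the probe set that stood for it and by 1.19 on another, while its other 6 probe sets had changes from -0.041 to 0.14 and did not pass. The call was lost in the mean of all its probe sets. The secreted semaphorin gene Sema3c had a change of 0.47 (adjusted p = 0.059). Calcb, a calcitonin gene-related peptide, rose by 0.94 from 4.61 to 5.55. Grp, gastrin-releasing peptide of pulmonary neuroendocrine cells, fell by 0.86, and Scn3b, a sodium channel subunit gene, by 0.81. Grp passed in 0 and Scn3b in 2 of the 6 fits without 1 array.

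Of 33 vascular endothelial markers none passed, 21 had a change above 0, and the median was 0.14. Without overlap 30.3% were higher and 3.03% lower, against 8.15% and 10.4% of all genes. Eng, a co-receptor of TGF-beta and BMP ligands, was at 10.05, 9.81 and 9.82 in virgin and 10.45, 10.36 and 10.36 in pregnant lung (change 0.50 ± 0.09, limma adjusted p = 0.0608). The transcription factor genes Sox18 and Sox7 had changes of 0.42 and 0.37 (adjusted p = 0.0906 and 0.121). Gata2, a transcription factor of endothelial, blood progenitor and mast cells, rose by 0.70 ± 0.10. It was the called member of the mast cell, basophil and eosinophil list, of which 18 of 19 did not pass, with a median of 0.03, and the basophil protease gene Mcpt8 had a change of 0.28. Angpt2, which loosens vessels as an antagonist of the TIE2 receptor, fell by 0.78 (adjusted p = 0.0466, 0.169 without virgin pool 3), and the TIE2 agonist gene Angpt1 had a change of 0.32 (adjusted p = 0.112). Adm, the vasodilator adrenomedullin, was at 6.89, 6.66 and 6.12 against 7.9, 7.31 and 7.73, with a change of 1.09 ± 0.21 that missed the threshold (adjusted p = 0.0637). Its receptor partner gene Ramp2 was at 12.45, 12.39 and 12.5 against 12.75, 12.77 and 12.75, with a change of 0.31 (adjusted p = 0.127). The endothelin gene Edn3 had a change of -0.46 (adjusted p = 0.141).

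Glucocorticoid hormones act through a nuclear receptor that switches on a shared set of genes. Of 29 glucocorticoid response genes 3 rose, 0 fell and 26 did not pass, while 0.126% of all genes rose and 0.308% fell. The list median was 0.30. Without overlap 58.6% were higher and 3.45% lower, against 8.15% and 10.4% of all genes. Sgk1, a kinase that raises sodium channel activity, was at 11.12, 11.23 and 11.21 in virgin and 11.9, 11.69 and 11.93 in pregnant lung, a rise of 0.65 ± 0.09 (limma adjusted p = 0.0262). Fam107a, an actin-binding stress gene, rose by 0.75 with 2 further probe sets at 0.61 and 0.50. Fkbp5 encodes a co-chaperone that dampens glucocorticoid receptor binding and rose by 0.67, while its further probe sets had changes of 0.10 and -0.14. Sgk1 and Fkbp5 passed in 1 of the 6 fits without 1 array, and Fam107a in 2. The call of Sgk1 was lost with all 12 arrays in the fit, that of Fkbp5 in the mean of all its probe sets, and that of Fam107a under 3 other settings. Cdkn1a, which encodes a cell cycle inhibitor, was higher by 1.16 (adjusted p = 0.0622). The receptor gene Nr3c1 itself had a change of -0.16; both were singled out after their values were seen. Of 29 immediate early genes, transcription factor genes that respond to stimuli within minutes, none passed, with a median of 0.29. Without overlap 48.3% were higher and 0% lower, against 8.15% and 10.4% of all genes. Maff, Atf3 and Junb had changes of 0.67, 0.59 and 0.59. Atf5, a stress-response transcription factor gene, rose by 0.64.

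Lung carries its own molecular clock, and clock genes were split. Of 18 members none passed, with a median of -0.17. Without overlap 22.2% were higher and 27.8% lower, against 8.15% and 10.4% of all genes. The output genes Hlf and Per3 had changes of -0.66 and -0.70, and the core activator gene Clock one of 0.42. Arntl and Dbp, singled out after their values were seen, had changes of 0.78 and -0.76. Pregnant pool 1 stood furthest from the virgin pools in both, with Arntl at 5.95 against 4.72 and 4.73 in the other pregnant pools and Dbp at 9.04 against 9.72 and 10.24. The labels give no hour of collection.

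Fatty acids and sterols serve the lung as fuel and as building blocks of surfactant and membranes. Of 40 genes of fatty acid oxidation and PPAR targets none passed, 26 had a change above 0 and 14 below, and the median was 0.10. Without overlap 27.5% were higher and 12.5% lower, against 8.15% and 10.4% of all genes. Acaa1b, a peroxisomal thiolase, was at 8.14, 8.36 and 8.2 against 8.67, 9 and 9.04 (change 0.67 ± 0.12, limma adjusted p = 0.055), and Acot1, an acyl-CoA thioesterase, had a change of 0.99 (adjusted p = 0.0599). Of 22 cholesterol synthesis and uptake genes none passed, with a median of -0.16, 36.4% lower and 0% higher without overlap. In fatty acid synthesis the regulator gene Srebf1 had a change of -0.47 (adjusted p = 0.0622), the desaturase gene Fads1 one of -0.41 and the phosphatidate phosphatase gene Lpin2 one of 0.40. Lrat, which esterifies retinol for storage, was at 9.49, 9.39 and 9.51 against 8.08, 7.88 and 7.93, and a further Lrat probe set fell by 1.32. Among enzymes outside the lists, Psat1 of serine synthesis fell by 0.78, Ivd of leucine breakdown by 0.62, and Acox2, a peroxisomal oxidase, by 0.47. Ddc, which makes dopamine and serotonin, fell by 0.66. Of 29 amino acid and nucleoside transporter genes Slc38a5 fell by 1.23 and 28 did not pass, with a median of 0.02. Slc36a2, an amino acid transporter gene counted in the fat tissue list, fell by 0.86. Respiratory chain and cytosolic ribosomal protein genes had medians of -0.04 and 0.03 with 0 called members among 49 and 41.

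**Figure D3:**
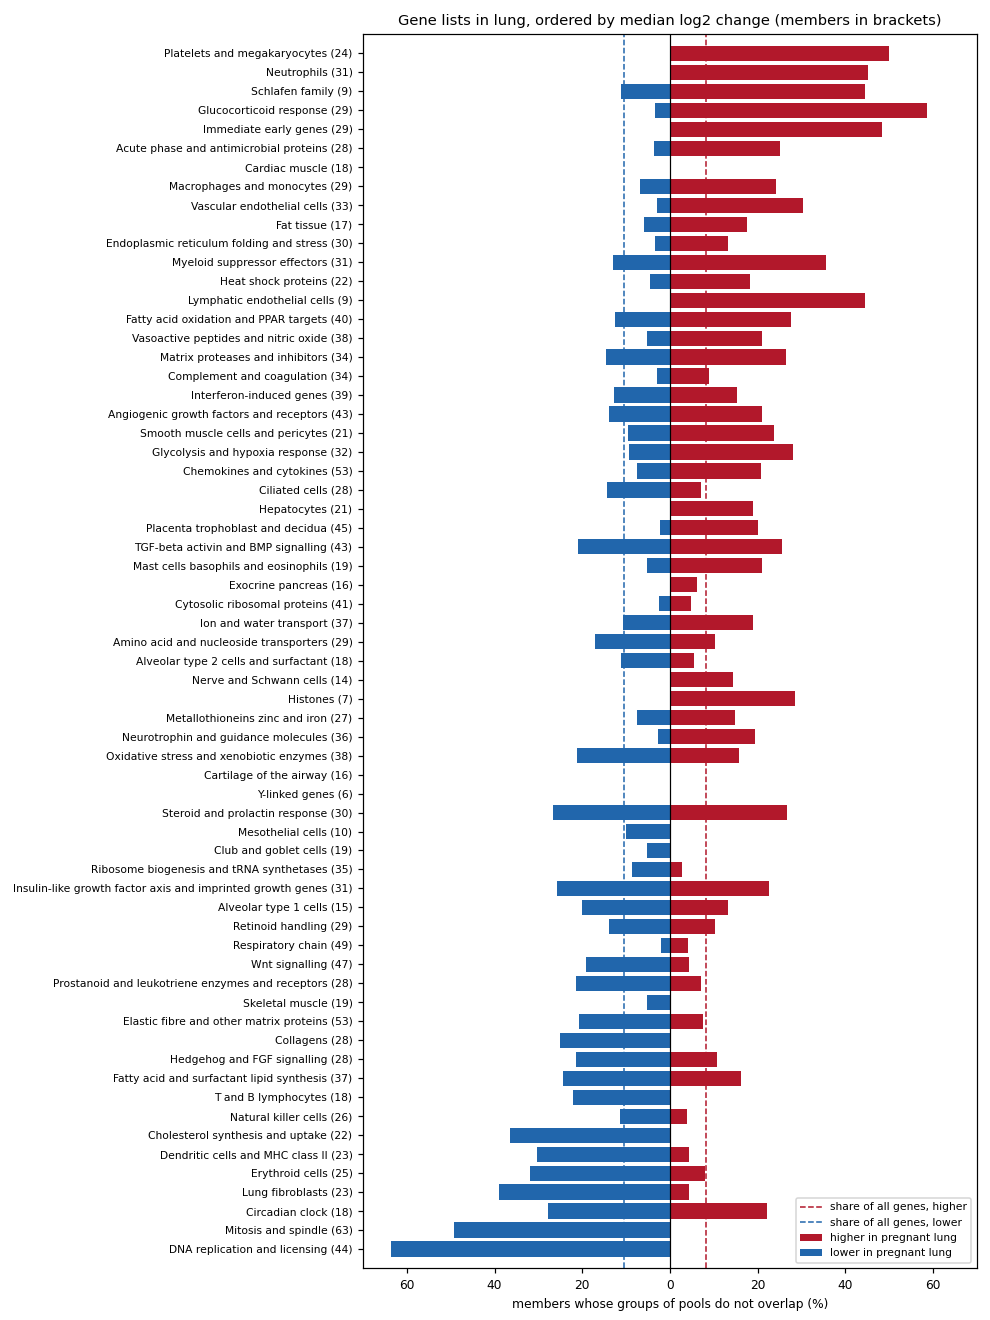
Bars give, for each of 64 gene lists, the percent of members whose groups of pools do not overlap, higher in pregnant lung to the right and lower to the left, ordered by median log2 change. Dashed lines mark the shares of all genes, 8.15% higher and 10.4% lower. The replication list reaches 63.6% lower and the glucocorticoid list 58.6% higher.

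Neutrophil and platelet markers varied between pregnant pools. Of 31 neutrophil markers 1 rose and 30 did not pass, while 0.126% of all genes rose. Of the 31 markers 28 had a change above 0, and the median was 0.42. Without overlap 45.2% were higher and 0% lower, against 8.15% and 10.4% of all genes. Il1r2, the decoy receptor for interleukin-1, rose from 4.51 ± 0.06 to 5.14 ± 0.09 (SD, n = 3; limma adjusted p = 0.0248). The lectin receptor gene Clec4e was at 5.84, 5.76 and 5.24 in virgin and 6.55, 7.09 and 6.51 in pregnant lung (change 1.11 ± 0.19, adjusted p = 0.0547). The mean level of the neutrophil list was 7.12, 7.69 and 7.18 in pregnant pools 1 to 3 and between 6.76 and 6.98 in virgin pools. Of 24 platelet markers none passed, with a median of 0.45 and 50% higher without overlap, and pregnant pool 2 was again highest, at 7.83 against 7.22 and 7.34. Treml1, a receptor of platelet granules, showed this order, at 5.63, 6.49 and 6.03 in pregnant against 5.47, 5.23 and 5.21 in virgin lung. Over the fits without 1 array the neutrophil median ran from 0.16 to 0.50 and the platelet median from 0.28 to 0.58.

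Slfn4, a Schlafen gene of myeloid cells, was at 7.34, 7.39 and 7.41 against 9.09, 9.69 and 9.11, a 3.78-fold rise (limma adjusted p = 0.00242). It was highest in pregnant pool 2, as the neutrophil list was, and without any single array its change lay between 1.72 and 2.02; the part of leukocyte number was not tested. Slfn2 and Slfn5 had changes of 0.58 and 0.34. Of the 9 Schlafen genes 5 had a change above 0 and 4 below. Without overlap 44.4% were higher and 11.1% lower, against 8.15% and 10.4% of all genes. Il6ra, the interleukin-6 receptor, rose by 0.70 ± 0.08, and Il22ra2, a soluble trap for interleukin-22, by 0.72 ± 0.10. The acute phase protease inhibitor gene Serpina3n rose by 0.60. Cxcl14, a chemokine of epithelium and stroma, was at 8.77, 8.82 and 8.71 against 7.62, 7.44 and 7.73 and fell 2.25-fold, and Ptges, a prostaglandin E synthase, fell by 0.75, with further probe sets at -0.18 and -0.35 that did not pass. Among alveolar macrophage and monocyte markers none of 29 passed, with a median of 0.14, and 24.1% were higher and 6.9% lower without overlap. Chil3 was at 12.73, 12.63 and 12.66 against 13.01, 12.97 and 13.01 (change 0.32, limma adjusted p = 0.114).

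Of 23 dendritic cell and MHC class II genes none passed and 17 had a change below 0, with a median of -0.16. Without overlap 4.35% were higher and 30.4% lower, against 8.15% and 10.4% of all genes. H2-Ab1, an MHC class II chain, was at 11.72, 11.84 and 11.94 against 11.42, 11.46 and 11.49 (change -0.38 ± 0.09, limma adjusted p = 0.106). Of 26 natural killer markers none passed, with a median of -0.10 and 11.5% lower without overlap, close to the 10.4% of all genes. Klrd1 was at 7.48, 7.59 and 7.44 against 6.87, 7.48 and 6.99, so its groups overlapped at pregnant pool 2. Interferon-induced genes had a median of 0.06, with 15.4% higher and 12.8% lower without overlap, against 8.15% and 10.4% of all genes. Of 39 none passed; the guanylate-binding protein gene Gbp2 had a change of -0.68 (adjusted p = 0.0683), while Oas1a and Ifi27l2a had changes of 0.81 and 0.83 (adjusted p = 0.0769 and 0.0881). Gbp3, Iigp1 and Psmb8, induced chiefly by interferon gamma, and Oas2 were singled out after their values were seen and had changes of -0.73, -0.76, -0.35 and 0.80. Of 25 erythroid genes Trim10 fell by 0.60 and 24 did not pass, with a list median of -0.16. Trim10 passed in 0 of the 6 fits without 1 array. Without overlap 8% of the erythroid genes were higher and 32% lower, against 8.15% and 10.4% of all genes. Bpgm, which sets oxygen release by red cells, had a change of -0.59 without passing.

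Prl8a2, a prolactin family gene of the decidua, was at 2.87, 2.98 and 2.85 in virgin and 5.65, 5.57 and 5.51 in pregnant lung (limma adjusted p = 2.55e-06). Its virgin level lay under 4.53, so the size of the 6.4-fold rise is uncertain. Without overlap 20% of the 45 trophoblast and decidua genes were higher and 2.22% lower, against 8.15% and 10.4% of all genes. Of the 45 genes 44 did not pass, the median change was 0.04, and 5 had a mean level above 4.53. Next by p came Prl2a1, with a change of 1.07 (adjusted p = 0.0685), and Prl7b1, with one of 1.59 (adjusted p = 0.0761) between means of 2.43 and 4.02, both under 4.53. The pregnancy-specific glycoprotein gene Psg23 was among these and overlapped between the groups, at 5.39 to 5.86 in virgin and 5.53 to 5.86 in pregnant lung.

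**Figure D4:**
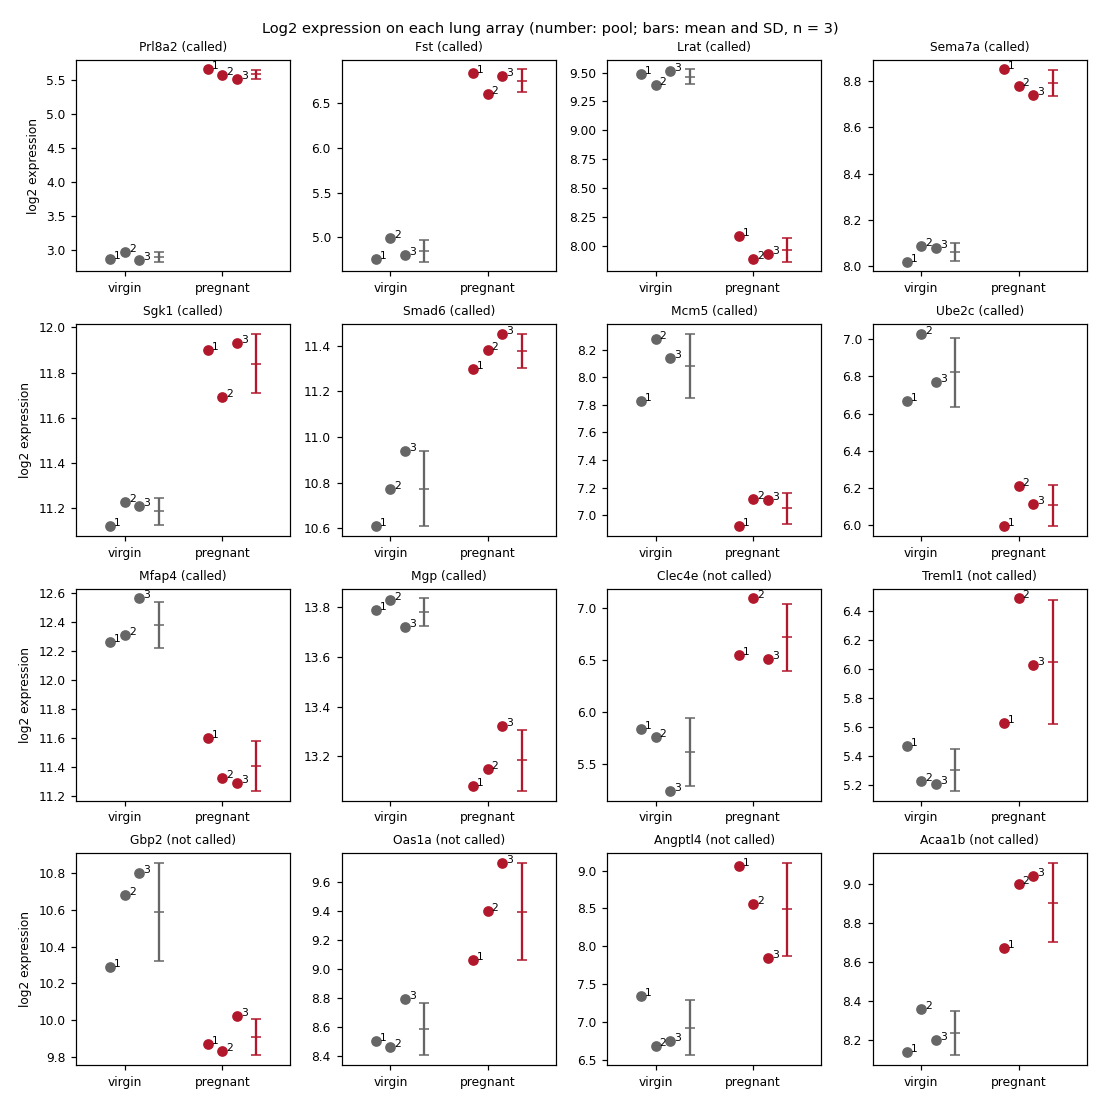
Log2 expression of 16 genes on each lung array, with the pool number beside each point and the mean and SD of each group (n = 3) as bars; each panel has its own axis, which does not start at 0. Called genes such as Prl8a2, Fst and Lrat show groups far apart against their spread, and genes that were not called, such as Treml1 and Angptl4, show a wide spread between pregnant pools.

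The cardiac muscle list varied more within the pregnant group than between the groups. Of 18 cardiac muscle genes none had separate groups; the atrial light chain gene Myl7 was at 11.17, 10.91 and 10.82 in virgin and 11.47, 11.61 and 9.64 in pregnant lung. The list median was 0.15 and turned to -0.11 at its lowest over the fits without 1 array. Of 17 fat tissue genes Slc36a2 fell and 16 did not pass, with a median of 0.13. Without overlap 17.6% were higher and 5.88% lower, against 8.15% and 10.4% of all genes. Fabp4 of fat tissue and endothelium was at 7.98, 7.67 and 7.54 against 8.35, 8.8 and 8.04, following the cardiac order of the pregnant pools, and its groups did not overlap, but its change of 0.67 did not pass (limma adjusted p = 0.172). The part of adjoining heart tissue in these values was not tested.

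The other called genes were spread over many functions. Rises of 0.50 to 0.96 were measured for Pla1a, a phosphatidylserine phospholipase, and for Tcim, Armcx4, Abtb2 and Tuft1. Phex, a membrane endopeptidase of phosphate balance, fell by 1.19, and S100a14 by 0.89. Lrrc17, Art4, Tmem132c and Rps6ka6 fell by 0.73 to 0.83, and Sertad4, Dnm1, Cep83os, Nt5dc2 and Fam229b by 0.60 to 0.75. Falls of 0.50 to 0.59 were measured for Dnaaf1, which assembles ciliary dynein, and for Lratd1, Pgm5, Eva1a, Haghl, Tlcd2 and Slc27a3. Glb1l3 fell by 0.97 between a virgin mean of 4.61 and a pregnant mean of 3.64. Of the 79 called genes 39 had a total of 59 further probe sets, of which 46 had the same sign, 6 were called the same way and 0 were called the other way. The 13 of opposite sign belonged to 9 genes: Pttg1, Dnaaf1, Sema7a, Epha3, Ntrk2, Cenpk, Fkbp5, Phex and Lrrc17.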

How the data were processed

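RNA of lung and liver was labelled with biotin and measured on one-colour Affymetrix mouse arrays, and only the 6 lung arrays were used here. The authors deposited log2 expression values computed with RMA and the affy package, per the submitters' processing notes, which name no versions and do not say if lung and liver arrays were normalized as one set. The 64 control probe sets were left out; 932 probe sets with several symbols and 9160 with none entered no gene test.

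Group means were compared in R 4.3.3 by the moderated test of limma 3.58.1, with 4 residual degrees of freedom and a prior worth 4.956. Dim genes were kept, and p-values were adjusted by Benjamini-Hochberg over 18193 genes. The 64 gene lists had 1834 of 2034 entries on the array and were described by counts and medians. The comparison, its members and the lists were chosen with earlier results of these data known. Every called gene could be named, as could the 3 members of a list with the smallest p and the 3 cell type markers of highest level; other genes were chosen after their values were seen, which the text states for each. Groups were taken from the sample titles. Correlations between pools of the same number, after removing group means, were -0.0026, 0.013 and 0.093, so the numbers were not taken as pairs. The fit was tested on simulated data with known changes. Alternatives changed 1 choice at a time.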

Additional observations from a re-analysis of the deposited data

Results flagged for a closer look

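Probe sets without a single gene symbol entered no gene test. All 45037 probe sets other than controls were fitted in the same way, with p-values adjusted over all of them. Among the 10092 without a single symbol, 8 passed at an adjusted p under 0.05 in limma, 6 higher and 2 lower in pregnant lung. They lie outside the genes described above. A probe set with several symbols rose by 1.49 from 4.87 to 6.36, with pregnant pools at 5.81, 6.79 and 6.46. A probe set with no symbol rose by 1.20 between levels of 3.17 and 4.37, where signal above background is not shown. The other 3 without a symbol rose by 0.85, 0.69 and 0.63. The last, with several symbols, rose by 0.60 at levels of 2.48 and 3.08. Of the falls, one with several symbols changed by -1.07 and one with no symbol by -0.82.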

How the results depend on the processing

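With all 12 arrays in the fit 107 genes were called, of which 47 rose and 60 fell, and 59 were shared with the 79. Leaving out dim genes gave 161 (61 up, 100 down), and a variance trend with robust moderation gave 311 (130 up, 181 down). Pool number as a replicate block gave 147 (59 up, 88 down), although the numbers share only a label; 2 of the 3 virgin pools were closest to the pregnant pool of their own number. An adjusted p under 0.01 left 8 (3 up, 5 down), and adding a 2-fold minimum left 14 (4 up, 10 down). Over the fits without 1 array the count ran from 6 to 102, with 3 to 46 up and 3 to 56 down. The other settings (other choices of probe set, centring, quantile normalization and array weights) gave 64 to 99 calls. Why these counts moved was not tested. Signs turned for some genes. With suffixed probe sets left out, changes became 0.14 for Pttg1, 0.017 for Lpcat1, -0.054 for Upk1b, 0.25 for Ighm, -0.14 for Fabp4 and 0.0098 for Fgfr2. Over all single-symbol probe sets Ighm was at 0.28 and Uty at 0.18. Over the fits without 1 array Zfy2 ran from -0.064 (virgin pool 3 left out) to 0.23 and Snorc from -0.37 to 0.036 (virgin pool 2 left out). Of these only Pttg1 was called. Signal under the median level limits 3 called genes in both groups and 9 in 1 group.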

Other observations

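Among prostanoid genes, the prostaglandin receptor genes Ptger3 and Ptgfr had changes of -0.62 and -0.37 beside the fall of Ptges, with adjusted p of 0.0648 and 0.187 in limma. None of 21 smooth muscle and pericyte markers passed; 13 had a change above 0 and 8 below, with a median of 0.06. Rgs5 of pericytes was at 6.63, 6.85 and 6.44 in virgin and 7.29, 7 and 7.63 in pregnant lung (adjusted p = 0.123), the potassium channel gene Kcnj8 had a change of 0.32, and Hhip, a hedgehog-binding protein gene, one of -0.33. The growth factor binding protein gene Igfbp3, singled out after its values were seen, was at 8.56, 8.04 and 8.54 against 9.34, 8.74 and 9.39, while Igf1 was at 8.21, 8.29 and 8 against 7.63, 7.21 and 7.82.

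Heat shock genes had a median change of 0.11 with 0 of 22 called; Hsph1 had a change of 0.70 and was highest in pregnant pool 1, at 9.06 against 8.63 and 8.35. None of 38 oxidative stress and xenobiotic enzyme genes passed, with a median of 0.01, and 15.8% were higher and 21.1% lower without overlap. The antioxidant genes Nqo1, Gclc and Sod3 had changes of -0.37, 0.36 and -0.30. Among 29 retinoid genes 1 fell and 28 did not pass, with a median of -0.03. Without overlap 10.3% were higher and 13.8% lower, against 8.15% and 10.4% of all genes. Beside the fall of Lrat, the cellular retinol-binding protein gene Rbp7 had a change of 1.38 (limma adjusted p = 0.105), with virgin pools between 3.75 and 5.1.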
